A study of Homo sapiens with 4 samples.

Results

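In H1, an established line of human embryonic stem cells (hESC), 445 regions bound by GATA3 after BMP4 treatment were assigned by gene name to long noncoding RNAs. The cells were grown in mTeSR1, received 50 ng/ml BMP4 for 6 h, and were profiled as 2 GATA3 ChIP replicates, each with its own input chromatin. No untreated GATA3 ChIP was in the comparisons, so the positions describe treated cells only, and whether BMP4 changed them was not tested. A shared region was a peak position of replicate 1 lying within 100 bp of a peak position of replicate 2, and there were 9145 of them. Of these, 445 (4.87%) carried an author-assigned gene name that begins with LINC, contains -AS and a digit, or begins with MIR and ends with HG.

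GATA3 is a zinc-finger transcription factor of the trophoblast, T cell and breast epithelial lineages, and its DNA-binding domain recognises the letters GATA with preferred flanking bases. Long noncoding RNAs (lncRNAs) are transcripts that encode no known protein. The symbol LINC marks a gene lying between coding genes, the suffix -AS marks one transcribed from the strand opposite a coding gene, and HG marks a host gene whose transcript contains a microRNA hairpin. The symbols describe position, not function, and most of these RNAs have no known role.

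The members comprised 212 regions under 164 LINC names (47.6%), 229 under 186 antisense names (51.5%) and 4 under 2 microRNA host names (0.899%). There were 352 RNA names in all. These classes follow the authors' symbols, which can be older ones. LINC00599, for example, was counted as LINC, while the GENCODE annotation names it MIR124-1HG, a microRNA host symbol. Most RNA names had a single region, with 284 names having 1 region, 52 having 2 and 16 having 3 or more. A part number ended 4 of the names, such as SMAD5-AS1_2 and SMAD5-AS1_4. Parts of 1 RNA were counted as separate names. The RNA name was the same in replicate 2 for 444 members, and 1 carried another lncRNA name there. The file stores 1 base position for each peak and no width or height, so a strong and a weak region cannot be told apart. The positions of the replicates differed by a median of 25 bp in members and 23 bp in other shared regions.

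The bases under 10 of the regions are printed first, as examples. They were chosen among RNAs with a listed developmental context or with a region close to the 5′ end of the RNA. Each window is 100 bases of hg38 centred on the shared region, plus strand, 5′ to 3′. Capitals mark the GATA hexamer, written WGATAR, on either strand. Its letters are AGATAA, the same ending in G, and both of these with T as the first letter.
GATA6-AS1, chr18:22168420-22168519: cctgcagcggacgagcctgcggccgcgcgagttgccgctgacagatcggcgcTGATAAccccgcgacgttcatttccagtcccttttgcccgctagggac
LINC00678, chr11:27635953-27636052: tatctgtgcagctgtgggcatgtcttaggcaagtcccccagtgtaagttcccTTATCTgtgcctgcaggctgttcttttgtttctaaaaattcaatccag
LINC01499, chr11:41714149-41714248: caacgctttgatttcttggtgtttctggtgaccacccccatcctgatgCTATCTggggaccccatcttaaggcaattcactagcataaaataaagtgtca
LEF1-AS1, chr4:108117862-108117961: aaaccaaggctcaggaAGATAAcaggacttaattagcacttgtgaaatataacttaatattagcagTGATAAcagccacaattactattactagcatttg
LCMT1-AS2, chr16:25149008-25149107: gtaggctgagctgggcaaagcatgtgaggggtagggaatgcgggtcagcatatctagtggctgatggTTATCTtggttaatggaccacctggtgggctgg
SPIN4-AS1, chrX:63349558-63349657: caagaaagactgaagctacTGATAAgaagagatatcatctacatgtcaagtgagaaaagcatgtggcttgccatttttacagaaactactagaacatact
CDKN2B-AS1, chr9:21994055-21994154: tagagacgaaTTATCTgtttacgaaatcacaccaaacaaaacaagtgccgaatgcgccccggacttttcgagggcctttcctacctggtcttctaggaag
LINC00458, chr13:54145816-54145915: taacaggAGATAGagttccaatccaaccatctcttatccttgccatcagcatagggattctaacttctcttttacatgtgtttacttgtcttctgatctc
GATA2-AS1, chr3:128485183-128485282: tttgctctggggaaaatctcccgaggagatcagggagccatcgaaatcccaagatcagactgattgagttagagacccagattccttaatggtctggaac
LINC00261, chr20:22579411-22579510: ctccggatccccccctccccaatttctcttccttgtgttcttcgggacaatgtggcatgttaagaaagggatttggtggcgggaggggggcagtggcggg
The first 3 windows hold a hexamer within 5 bp of the region centre. The window of LEF1-AS1 holds 2, and those of GATA2-AS1 and LINC00261 hold none. The motif results below use all regions and 200 bp around each centre, so a region can hold more sites there than are marked here.

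Among members, 345 of 445 (77.5%, 95% Wilson interval 73.4 to 81.2) held at least 1 WGATAR hexamer within the 200 bp around their centre. Among all 9145 shared regions the share was 82.0%, and among the 8700 other shared regions it was 82.2% (81.4 to 83.0). The odds of holding the hexamer were lower in members (odds ratio 0.746, two-sided Fisher's exact p = 0.0136, adjusted p = 0.0409 over the 3 tests made). The call was lost in 6 of the alternatives tried, among them 1 region per gene name (odds ratio 0.84, adjusted Fisher's exact p = 0.533). GC content, which sets how often such letters occur, had a median of 43.5% in members and 44% in the others, and pooled over 5 GC groups the odds ratio was 0.73 (0.578 to 0.921).

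Sites were most dense at the region centres in both sets. In the central 40 bp, members held 11.7 WGATAR sites per kb and other shared regions 13, against 2.07 and 2.46 in the outer parts of a window reaching 200 bp to each side. The site nearest to the centre lay a median of 19 bp away in members that had one. Of the members, 100 held no site, 197 held 1, 113 held 2 and 35 held 3 or more. Of the 100 members with no WGATAR, 57 held the letters GATA in another context, and the corresponding share of other shared regions was 59.0%, a count made after the WGATAR shares were seen.

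Between LINC and antisense regions the test found no difference in the hexamer. The share was 78.8% (167 of 212) for LINC and 76.9% (176 of 229) for antisense names. The odds ratio between them was 1.12 (Fisher's exact p = 0.648, adjusted p = 0.972), and the Wilson intervals overlapped, 72.8 to 83.7 and 71.0 to 81.8. Of the 4 microRNA host regions, 2 held it.

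**Figure D1:**
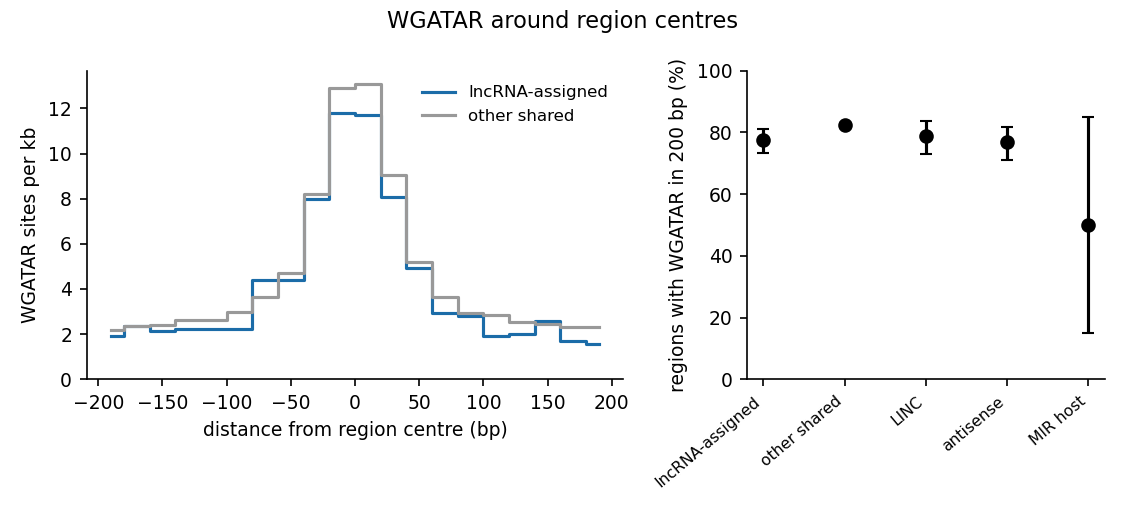
Left, WGATAR sites per kb in 20 bp bins by distance from the region centre in bp, for the 445 lncRNA-assigned (blue) and 8700 other shared regions (grey). Right, percent of regions with at least 1 WGATAR in 200 bp, with 95% Wilson intervals, in which 77.5% of lncRNA-assigned and 82.2% of other regions held the hexamer and the MIR host interval spans 4 regions only.

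None of 9 motifs in a wider panel differed between members and other shared regions at an adjusted p of 0.05 by Fisher's exact test, and none did at an unadjusted 0.05. The panel held AGATAA, the AP-1 site TGACTCA or TGAGTCA, the TEAD site GGAATG, the SOX site ACAAAGG or ACAATGG, the octamer ATGCAAAT that OCT4 binds, the E-box CACCTG, the SMAD letters GTCTG, the GC box GGGCGG and, as a control, WGATAR spelled backwards, all on both strands in 200 bp. AGATAA was in 48.1% of members and 51.8% of the others (Fisher's exact p = 0.132, adjusted p = 0.396). The AP-1 site was in 3.82% and 5.74% (Fisher's exact p = 0.0919, adjusted p = 0.396), and the GC box was in 3.60% and 5.38% (Fisher's exact p = 0.104, adjusted p = 0.396). The TEAD letters were in 17.5% and 18.9%, the SOX letters in 11.9% and 13.3%, the octamer in 4.27% and 5.14%, the E-box in 13.3% and 13.5% and the SMAD letters in 34.6% and 36.1%. The backwards control was in 35.1% and 32.4%.

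The share of positions found in both replicates was compared next. Of the 899 lncRNA-named positions of replicate 1, 445 (49.5%, 46.2 to 52.8) lay within 100 bp of a replicate 2 position, against 49.6% of all 18456 replicate 1 positions on the chromosomes. The odds ratio to positions with other names was 0.998 (Fisher's exact p = 1.00). At the edge of the rule, 7 members had replicate positions over 90 bp apart, up to 100 bp in a region named NAV2-AS2, while 10 positions outside the rule missed by at most 10 bp, the closest being named CHRM3-AS2 with a gap of 101 bp. Of the 454 positions left out, 345 had no replicate 2 position within 10 kb.

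Chromosome 13 held 72 members on 57 RNA names, 16.2% of all members, against 2.77% of the other shared regions. These 72 were 48 LINC and 24 antisense regions. They were 23% of the 313 shared regions of chromosome 13, against 4.22% on the other chromosomes together. The same difference stood in each replicate alone, at 24.5% and 4.20% of positions in replicate 1 and 22.5% and 4.20% in replicate 2. The names come from an annotation that the sources used here do not give, and GENCODE was set beside them. By nearest start among GENCODE coding genes and lncRNA genes with such symbols, 2470 shared regions (27.0%) lay closest to such an RNA, 55.3% on chromosome 13 and 26.0% elsewhere. The authors' names gave an RNA symbol to 39.9% of those regions on chromosome 13 and to 14.8% of them elsewhere. The share of the chromosome 13 excess that annotation contributes was not tested. Chromosome 13 is poor in coding genes, and 3 coding genes were nearest to 3 or more of its members each. SLITRK5, a neuronal transmembrane protein gene, was the nearest for 7 regions at 738 to 1572 kb, SPRY2, an inhibitor of receptor tyrosine kinase signalling, for 4 at 352 to 720 kb, and DIAPH3, an actin-organising formin, for 3 at 78.5 to 397 kb. Chromosome 3 followed with 43 members.

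**Figure D2:**
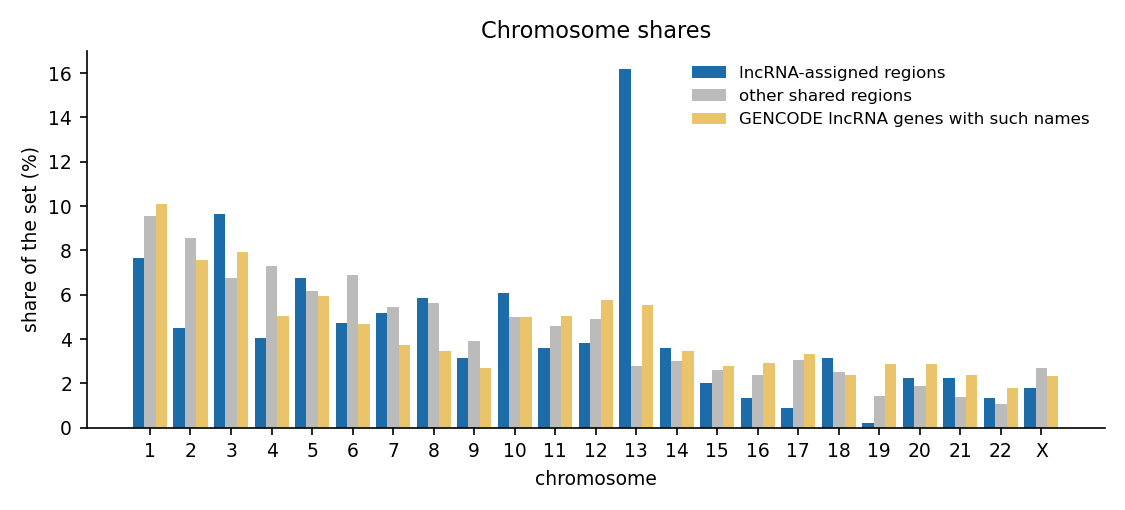
Share of each set on every chromosome (percent of the set, bars), for the 445 lncRNA-assigned regions (blue), the 8700 other shared regions (grey) and the GENCODE lncRNA genes with such names (yellow). Chromosome 13 holds 16.2% of the lncRNA-assigned regions, 2.77% of the other regions and 5.55% of the gene names.

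Positions relative to the named RNA were measured for 427 members, whose names matched a GENCODE lncRNA by symbol (410) or older symbol (17). The other 18 did not match one and have no such distance. Among these, 7 carried a name that matched a coding gene only. In 360 of the 427 (84.3%), the named RNA was also the gene with the nearest GENCODE transcription start. The names helped to choose the members, so distances to the RNA are a description. The median distance to the 5′ end of the RNA was 22.4 kb (quartiles 6.49 and 55.3 kb). Within 1 kb lay 39 regions (9.13%), within 10 kb 140 (32.8%), and 114 (26.7%) were more than 50 kb away. The gene body of the RNA covered 119 regions (27.9%), of which 100 were intronic and 19 exonic. For LINC names 73 of 200 (36.5%, 30.1 to 43.4) lay inside the RNA gene, and for antisense names 46 of 223 (20.6%, 15.8 to 26.4). Upstream of the RNA start lay 215 (50.4%).

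Distances to coding genes are also a description, since the names that chose the members may depend on them. The nearest coding start lay a median of 122 kb away (quartiles 39.0 and 277 kb), against 70.2 kb (19.3 and 210 kb). Within 1 kb of a coding start lay 9 members (2.02%) and 4.86% of the others, and all 9 were antisense names. None of the 212 LINC regions lay that close, which leaves an upper Wilson limit of 1.78%. Beyond 100 kb lay 245 members (55.1%) and 41.6% of the others.

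**Figure D3:**
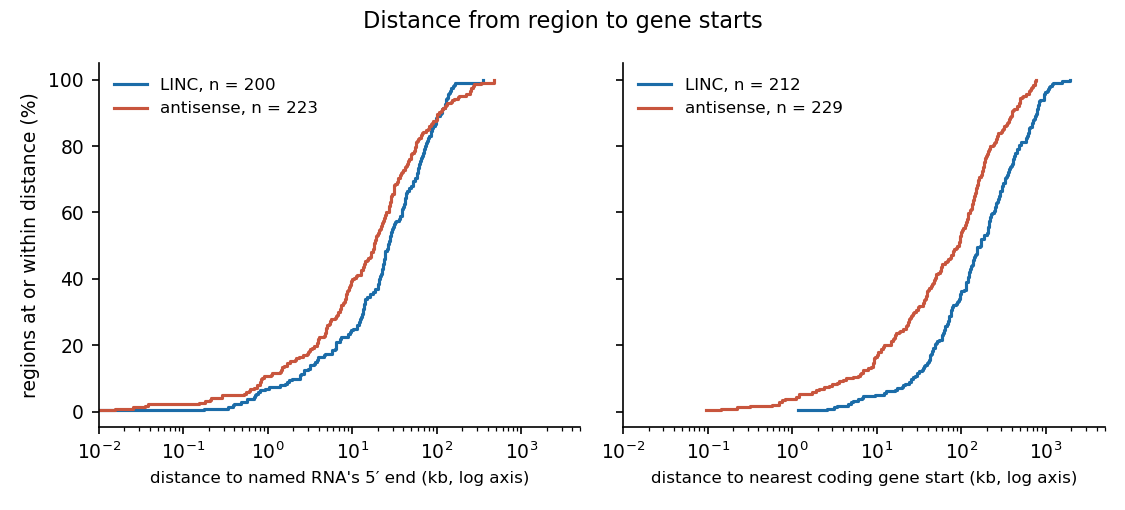
Percent of regions at or within each distance in kb (log axis) of the 5′ end of the named RNA (left) and of the nearest coding gene start (right), for LINC (blue) and antisense names (red). The median coding distance is 168 kb for LINC and 93.7 kb for antisense regions.

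Regions that lay closest to the RNA start were named by the fixed rule. Among LINC RNAs, the region of LINC01132 was in an exon, 0.0085 kb past the 5′ end, at 234724064 on chromosome 1 in replicate 1 and 234724037 in replicate 2. The region of LINC01315 was 0.178 kb past its 5′ end in an exon (chromosome 22), and that of LINC01499 was 0.336 kb upstream of its 5′ end with 2 WGATAR sites, one of them 1 bp from the centre. LINC01237, LINC00469, LINC00665 and LINC01146 followed, at 0.397, 0.481, 0.569 and 0.571 kb.

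Among antisense RNAs, the closest were LRRC3-AS1, DLGAP1-AS1, LCMT1-AS2, CDKN2B-AS1 and SPIN4-AS1, at 0.0045, 0.0155, 0.0255, 0.035 and 0.0385 kb, all just upstream of the RNA. LRRC3-AS1 diverges from LRRC3, and its region lay between the starts of the RNA and of LRRC3, 0.222 kb from the latter. It is GC rich (67.5%) and held no WGATAR. The CDKN2B-AS1 region was 1.20 kb past the start of CDKN2A, which encodes cell cycle inhibitors, and 15.2 kb from the start of CDKN2B. The region of SPIN4-AS1 was 1.72 kb past the start of SPIN4 on chromosome X. The region of ABCC5-AS1 was 0.153 kb upstream of its RNA, and that of CA3-AS1 was 0.183 kb inside the RNA and 0.764 kb past the start of CA2, a carbonic anhydrase gene. Of the 39 members within 1 kb of the RNA start, 25 (64.1%, 48.4 to 77.3) held WGATAR. Of the 388 farther away, 305 (78.6%, 74.3 to 82.4) did. The Wilson intervals overlap, and the difference was not tested. Of the 39, 7 were also within 1 kb of a coding start.

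Antisense names point to a partner gene, and 226 of the 229 antisense regions had a partner in GENCODE. The region lay inside the partner gene in 168 (74.3%), and the partner's start was the nearest coding start in 151 (66.8%). Distances to the partner's start are also a description, since a region near that start may carry the partner's own name. The start was within 1 kb in 7 regions (3.10%), within 10 kb in 28 (12.4%) and within 50 kb in 78 (34.5%), and the median was 118 kb. Where strand and start could be compared, the RNA began inside or beyond the partner in 213 of 220 and diverged from it in 7.

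EGLN3-AS1 had the most regions, 6, spread over chromosome 14 from 33565385 to 34166012. They lay from 475 kb upstream of the RNA start to 126 kb past it, and each held 1 to 4 WGATAR sites. EGLN3, its partner, encodes an oxygen-sensing prolyl hydroxylase. The outermost start in its gene record lay 297 to 897 kb away, and the starts of its other transcripts were not measured. The first 2 regions, which had NPAS3 as nearest coding gene, are inside it. NPAS3 is a neuronal transcription factor gene. The other 4 had SPTSSA as nearest coding gene, and whether they also lie inside NPAS3 was not measured.

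NAV2-AS3 and NAV2-AS2 had 4 regions each on chromosome 11, within 19952414 to 20042246. By distance to the gene start, DBX1, a homeobox gene of neural progenitors, was the nearest coding gene of all 8, at 118 to 208 kb. Such a region can still lie inside another coding gene that starts farther away, such as the partner NAV2. None of the 8 was inside an annotated exon or intron of its RNA. The region at 19967934 held 2 sites, the nearer 1 bp from the centre, and the one at 20042246 held 3, whereas 3 of the 8 held none. LINC01571, on chromosome 16, had 4 regions of which 3 held no WGATAR, and LINC01592, on chromosome 8, had 4, all in its intron and 421 to 463 kb upstream of SULF1, a heparan sulfate sulfatase gene.

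**Figure D4:**
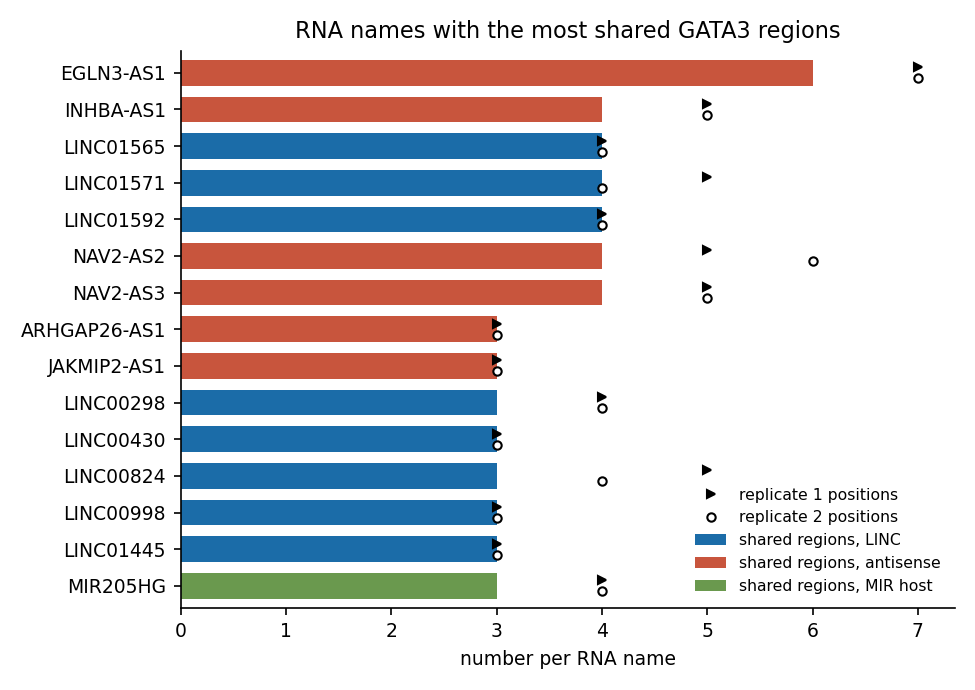
Shared regions (bars) and peak positions in replicate 1 (filled triangles) and replicate 2 (open circles) for the 15 RNA names with the most regions, with bar colour giving the name class. EGLN3-AS1 leads with 6 regions from 7 positions in each replicate, 6 names follow with 4 regions, and NAV2-AS2 had 5 positions in replicate 1 and 6 in replicate 2.

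Of the 9 names with 3 regions, 8 completed the leading 15, with ties broken by name. The one past that limit was SOCS2-AS1, with regions 2.71, 22.1 and 26.7 kb past the start of SOCS2, an inhibitor of cytokine signalling, each with WGATAR. ARHGAP26-AS1 had all 3 inside ARHGAP26, and JAKMIP2-AS1 had 3 in its own intron, 56.6 to 70.6 kb upstream of DPYSL3. LINC00430 regions lay 738 to 840 kb upstream of SLITRK5 on chromosome 13, and LINC01445 regions lay 223 to 264 kb upstream of VSTM2A. LINC00824 had 1 region 0.736 kb upstream of its RNA and 2 beyond 100 kb, with MYC, the proliferation-driving transcription factor gene, as the nearest coding gene at 830 to 955 kb. LINC00998 is an older symbol of the coding gene SMIM30, so its 3 regions were given no distance to an RNA.

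INHBA encodes the beta A subunit of activin A, a TGF-beta family ligand that signals in hESC. It was the nearest coding gene of 6 members, named INHBA-AS1, LINC01450 and LINC01449. Of the 4 named INHBA-AS1, 3 were inside INHBA at 9.33, 16.7 and 31.1 kb past its start and the other lay 260 kb away. The one at 9.33 kb was in an intron of INHBA-AS1, at 41696505 on chromosome 7 in replicate 1 and 41696497 in replicate 2. Each of the 4 held WGATAR, 16 to 38 bp from the centre.

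GATA2, which encodes another GATA factor of the trophoblast and blood lineages, was the nearest coding gene of 4 members. The region named GATA2-AS1 was inside GATA2, 7.97 kb past its start and 3.98 kb upstream of the RNA, at 128485244 and 128485221 in replicates 1 and 2, and it held no WGATAR in its 200 bp. LINC01565 named 4 regions, 3 of them 75.6, 76.7 and 88.6 kb upstream of GATA2 and 1 of them 63.2 kb from the start of RPN1, a gene of the oligosaccharyltransferase. The region at 88.6 kb held 3 sites (128581830 and 128581838). The 3 remaining shared regions with GATA2 as nearest coding gene were named GATA2 itself and lay within 5 kb of its start.

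**Figure D5:**
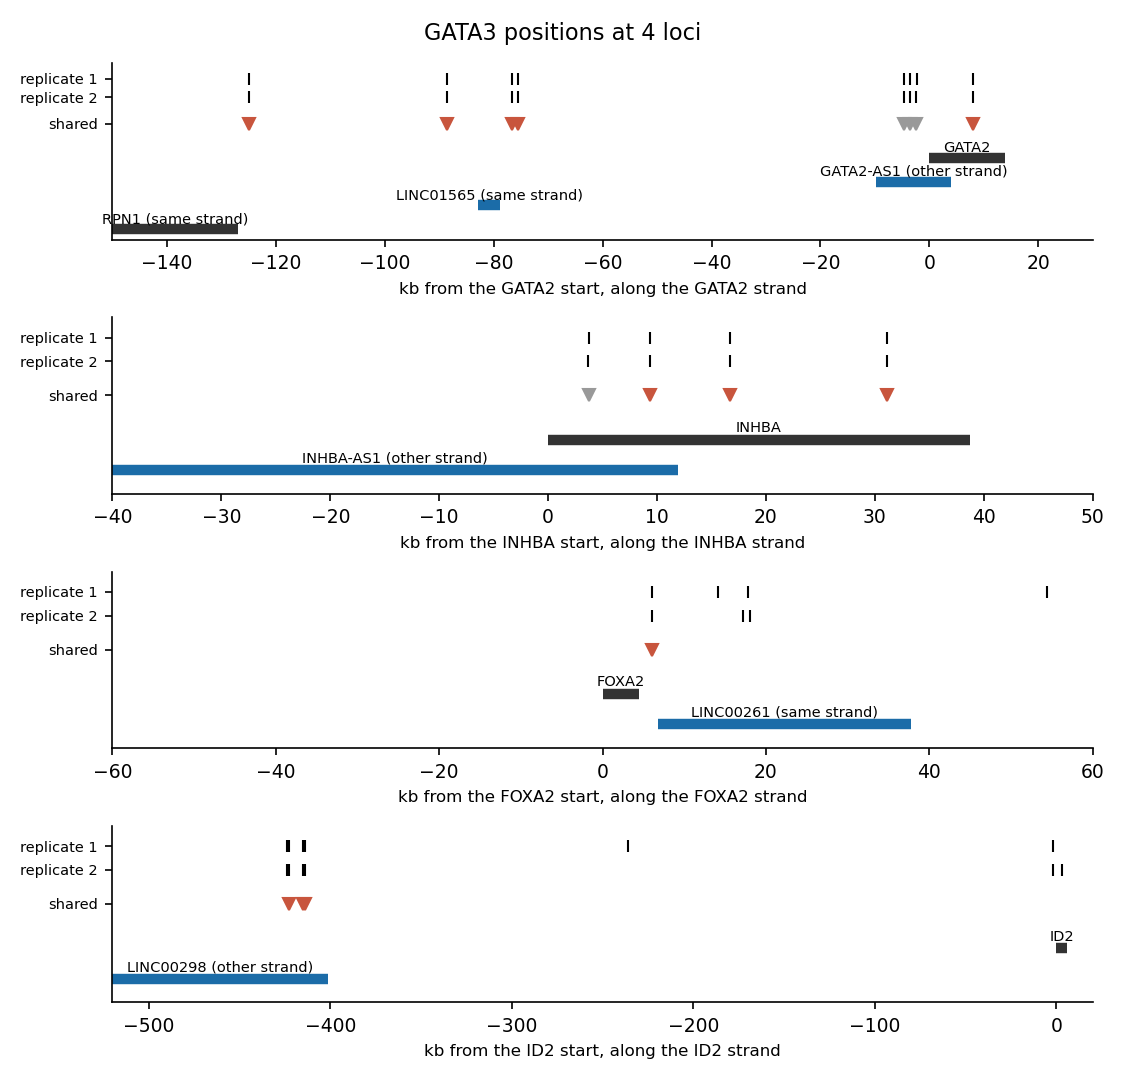
Peak positions of each replicate (ticks), shared regions with lncRNA names (red triangles) and with other names (grey triangles), coding genes (dark bars) and RNA genes (blue bars) by distance in kb from the start of GATA2, INHBA, FOXA2 and ID2, along the strand of each. Members lie 7.97 kb past and 75.6 to 125 kb before the GATA2 start, 9.33 to 31.1 kb past the INHBA start, 5.99 kb past the FOXA2 start and 414 to 423 kb before the ID2 start.

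GATA6, a GATA factor of the endoderm and extraembryonic lineages, had 1 member. The region named GATA6-AS1 (22168460 and 22168479 on chromosome 18) lay in an exon of the RNA, 1.12 kb upstream of the GATA6 start, and held 2 WGATAR sites, the nearer 5 bp from the centre. FOXA2, the forkhead factor of definitive endoderm, had the LINC00261 region at 5.99 kb. It lay past the FOXA2 gene and 0.819 kb upstream of the LINC00261 start (22579467 and 22579454.5 on chromosome 20), and held no WGATAR. LINC00261 had 4 positions in replicate 1 and 3 in replicate 2, of which only that pair was within 100 bp. GATA3 itself was the nearest coding gene of 2 members named LINC00709, but at 1194 and 1218 kb. GATA3 was the nearest coding gene of 10 shared regions in all, and those without an lncRNA name are outside this set. The study reports GATA3 peaks at the GATA3 promoter. No position in either replicate carried the name GATA3-AS1, an RNA that starts next to GATA3 on the other strand. A peak there may bear another gene's name.

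ID2, a BMP target gene that encodes a helix-loop-helix inhibitor, was the nearest coding gene of 3 regions in an intron of LINC00298, 414 to 423 kb upstream. Those at 8255717 and 8264215 of chromosome 2 held 1 WGATAR each, and the one at 8265246 held none. ZEB2, a repressor of epithelial genes, had 2, one named ZEB2-AS1 inside the gene at 10.2 kb and one named LINC01412 at 60.9 kb upstream. FOXD3, a factor of pluripotent and neural crest cells, had 2 named LINC00466, at 2.61 and 17.2 kb upstream. SOX1, a neural progenitor factor, had 2 named LINC00354, at 131 and 216 kb. SOX2, a core pluripotency factor, had 1 named LINC01206 at 229 kb past its start, and SOX11 had 1 named LINC01105 at 222 kb. TFAP2A, a trophoblast and surface ectoderm factor, had 1 named TFAP2A-AS1 inside the gene at 15.9 kb, and ZIC2 had 1 named LINC00554 at 9.69 kb. FOXN3 had 2 named FOXN3-AS1, both 178 kb away.

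A list of 35 developmental regulator families supplied the nearest coding gene of 39 members (8.76%), through 29 genes. The same list supplied it for 4.29% of the other shared regions and made up 1.76% of coding genes. For LINC names it was 24 of 212 (11.3%) and for antisense names 15 of 229 (6.55%), with Wilson intervals of 7.73 to 16.3 and 4.01 to 10.5 that overlap. In all, 338 coding genes were nearest to a member, 72 of them to 2 or more and 18 to 3 or more. These shares describe the neighbourhood and were not tested, and whether any of these genes responded to GATA3 cannot be read from peak positions.

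A list of 48 lncRNAs of developmental or stem cell interest had 11 with a region (22.9%), and 37 had none. Among the 4146 GENCODE lncRNA genes with such symbols, 319 (7.69%) had one by exact symbol, a share that covers many genes the authors' annotation may lack, and the list was chosen with earlier results known. Among the 11 were GATA2-AS1, GATA6-AS1, LINC00458, LINC00261, LINC00678, MIR205HG, HOXA-AS2, ZEB2-AS1, LEF1-AS1 and CDKN2B-AS1. LINC00458, a transcript of pluripotent cells, had 5 positions in replicate 1 and 3 in replicate 2, of which 1 pair was shared, 5 bp apart, in an intron of the RNA with 2 WGATAR sites. A second pair missed the rule with a gap of 106 bp. LINC00678 had 1 shared region 1.38 kb upstream of its start with 2 sites, the nearer 5 bp from the centre (27636007 and 27635998). HOXA-AS2 had 1, at 1.54 kb upstream of the RNA and 3.55 kb upstream of HOXA2, a hindbrain patterning gene. LEF1-AS1 had 1, which lay 51.0 kb inside LEF1, a Wnt effector.

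Of the 37 without a shared region, HAND2-AS1 came closest. It had 2 positions in replicate 1 and 1 in replicate 2, and the closest pair was 129 bp apart. LINC-ROR, TBX5-AS1, MIR31HG, MIR99AHG and MEIS1-AS3 had 1 position each in replicate 1 and none in replicate 2, with the nearest replicate 2 position from 2225 bp to 267403 bp away. ID2-AS1, KLF3-AS1 and LINC01108 had a position in replicate 2 only. Absence here means only that no replicate 1 peak with that name lay within 100 bp of a replicate 2 peak, among peaks that passed the authors' threshold. A region near such an RNA may also bear another gene's name.

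MIR205HG, the host gene of miR-205, a microRNA of epithelial cells, had 3 regions and MIR9-3HG, the host of a miR-9 copy expressed in neural cells, had 1. The mature sequences are shown with the seed, bases 2 to 8, in capitals, to identify the products of the hosts, and were taken from RefSeq.
hsa-miR-205-5p: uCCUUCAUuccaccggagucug
hsa-miR-9-5p: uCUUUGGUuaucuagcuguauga
The MIR205HG regions lay 29.5 kb upstream, 4.63 kb past and 44.3 kb past the RNA start, at 209399366, 209433465 and 209473106 of chromosome 1 in replicate 1. The middle one was 1.32 kb past the start of the MIR205 hairpin, and only the first held WGATAR. Their replicate positions differed by 1 to 28 bp, and another pair missed the rule with a gap of 235 bp. The MIR9-3HG region was 0.777 kb upstream of the RNA and 7.21 kb upstream of the hairpin on chromosome 15, with 1 WGATAR 68 bp from the centre. The nearest coding genes were CAMK1G at 111 to 184 kb for MIR205HG and POLG, the mitochondrial DNA polymerase gene, at 25.9 kb for MIR9-3HG.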

How the data were processed

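Per the labels, 4 samples were collected, 2 GATA3 ChIP and 2 input. According to the methods of the study, the authors used cutadapt, bowtie (hg38) and Picard for trimming, alignment and duplicate removal, and called peaks with MACS2 at q 0.05 in each replicate against its own input. The deposited files held 1 position and 1 gene name per peak, in 18545 lines for replicate 1 and 12870 for replicate 2. These numbers differ from the peak counts that the study reports for its replicates, and the cause was not tested. How positions and names were derived is not given in the sources used here, nor is the counting base, so a position may be off by 1 bp or more. Read depth, signal tracks and input samples were not analysed here.

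Distinct positions on the 24 chromosomes (18456 and 12782) were matched at 100 bp and compared with hg38 sequence and GENCODE release 44. The start of a gene was the outermost 5′ end of its GENCODE record, so the start of a shorter transcript may lie closer to a region. Shares were compared by Fisher's exact test, with Benjamini-Hochberg adjustment over 3 tests and over 9 motifs, and intervals were 95% Wilson intervals, in Python 3.11.15, scipy 1.17.1 and statsmodels 0.14.6. Regions are not replicates of the treatment, and regions of 1 RNA are not independent, so p-values and intervals cover counting error over regions only. The matching, motif search and test were checked on simulated data. The members and lists were chosen with earlier results of these data known. Named RNAs were the 15 with the most regions, the 8 LINC and 8 antisense RNAs whose 5′ end was closest to a region, the microRNA hosts, a list of 48 RNAs and the coding genes nearest to those. A few of the RNAs that this rule names are not reported here.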

Additional observations from a re-analysis of the deposited data

How the results depend on the processing

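Of 62 values under alternative settings, 48 kept both direction and call, moved by less than the counting error or, for counts, stayed within 1.5 times. The 445 members became 347 with replicates matched at 50 bp and 572 with names of GENCODE lncRNA type. The WGATAR odds ratio of members against other shared regions was below 1 in each alternative run, but no longer passed with replicates matched at 250 bp (0.799), a 100 bp window (0.829), the letters AGATAA (0.863) or 1 region per gene name (0.84), and was 0.848 to 0.889 with the positions of 1 replicate alone. The cause was not tested. Without chromosome 13, an alternative chosen after seeing the data, it was 0.732 (adjusted Fisher's exact p = 0.0471). The LINC against antisense odds ratio, which did not pass in any setting, turned to 0.892 with a 100 bp window, 0.975 with a 400 bp window and 0.967 with AGATAA. With names from replicate 2, the replicate match was 72.4%, against 71.5% of other replicate 2 positions, a difference that did not pass. The cause of the turn was not tested. LINC names alone gave 212 regions. With the start of the canonical transcript of each gene, the median distance to the nearest coding start was 107 kb instead of 122 kb. By construction, wider or narrower limits gave 21.8% of regions within 5 kb of the RNA start, and 12.4% and 45.6% of antisense regions within 10 and 100 kb of the partner. No paired analysis was possible because the replicates were compared by position and there was 1 group of ChIP samples. Depth, peak height and width were unknown, so absence of a name says nothing about binding below the authors' threshold, beyond 100 bp between replicates or under another gene's name.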
